A study of Mus musculus with 15 samples.

Results

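The 34 genes described here encode core proteins of the synapse: 17 of the presynaptic terminal, 14 of the excitatory postsynaptic side and 3 of inhibitory synapses. They were chosen by name, as a list of synaptic genes, with earlier results of these data known. The list was drawn from 54532 genes in a table of bulk RNA-seq read counts from mouse forebrain. The count filter left 16956 genes for testing, and 34 of the 34 synaptic genes passed it. The cKO group held 7 libraries from Cx3cr1CreER;ATG7FF;5xFAD mice and the control group held 6 libraries from ATG7FF;5xFAD mice without Cre. Both groups were C57BL/6 mice with floxed Atg7 alleles and the 5xFAD transgenes, given 1.5 mg tamoxifen when 2 months old and sampled when 8 months old. The tissue was the forebrain hemispheres without the cerebellum. The comparison asks how deletion of Atg7, a gene needed for autophagy, from microglia bears on the forebrain transcriptome of this amyloid model. In the widely used Cx3cr1CreER alleles the recombinase sits at the Cx3cr1 locus and is active in microglia and in other cells that express Cx3cr1, and the controls lacked that allele. In 5xFAD mice the mutant human transgenes are driven by the neuronal Thy1 promoter. The labels do not say that each library came from a separate mouse, so the p-values measure the spread between these libraries.

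At a chemical synapse, the presynaptic terminal releases transmitter when calcium drives fusion of synaptic vesicles by the SNARE proteins, at an active zone organised by very large scaffold proteins. Neurexins on the presynaptic side bind neuroligins on the postsynaptic side, and scaffolds of the PSD-95, Shank and Homer families hold NMDA and AMPA glutamate receptors in place. Inhibitory synapses use gephyrin in place of the PSD-95 scaffold, and microglia are known for pruning synapses and for surrounding amyloid plaques.

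Library totals lay between 16658707 and 22355512 counts, and the biological coefficient of variation of the fit was 10%. Between libraries of 1 group the chi-square per degree of freedom was at least 2.66, so no pair of libraries agreed within counting noise. Levels in CPM are counts scaled to the library's size after adjustment by the trimmed mean of M-values (TMM). Atg7 itself was at 24.3 ± 1.32 CPM in cKO forebrains and 24.3 ± 2.09 CPM in control forebrains (SD, n = 7 and 6), with a log2 change of 0.01 and an adjusted p of 0.991 (edgeR). That value is no check of the deletion, because every cell type of the forebrain contributes reads and the counts are not split by exon. Of 15 microglial marker genes, 13 were called lower, among them P2ry12, Csf1r, C1qa, Trem2, Tyrobp and Cx3cr1. The summed level over all 15, Cx3cr1 included, was 364 to 405 CPM in cKO forebrains, against 580 to 716 CPM in controls. For Cx3cr1 (log2 change -1.37), an effect of the recombinase allele itself, absent from the controls, cannot be told apart from one of Atg7 deletion. Of 14 general neuronal markers none was called by edgeR at an adjusted p of 0.05, with 1 higher and 1 lower at an unadjusted p under 0.05. Their median log2 change was 0.01, and their summed level was 6212 to 6716 CPM in cKO forebrains and 6320 to 6565 CPM in controls. Summed oligodendrocyte markers were at 4987 to 5755 CPM in cKO forebrains and 5608 to 5965 CPM in controls, with 0 of 10 called and 3 lower at an unadjusted p under 0.05, and summed astrocyte markers at 4525 to 5070 CPM in cKO forebrains and 4973 to 5281 CPM in controls, with 0 of 10 called and 1 lower at an unadjusted p under 0.05. The part of these shifts in the synaptic values was not tested. In a bulk sample, fewer cells of a type and less RNA per cell cannot be told apart.

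None of the 34 synaptic genes was called higher or lower in cKO forebrains at an adjusted p of 0.05 over all tested genes (edgeR), and DESeq2 and limma-voom also called none. Across the transcriptome, 0.0531% of tested genes were called higher and 0.277% lower. The smallest adjusted p among the 34 was 0.386. At an unadjusted p under 0.05, 6 synaptic genes were lower, 3 presynaptic (Nrxn3, Bsn and Pclo) and 3 postsynaptic (Grin2a, Nlgn1 and Grin2b), and 0 were higher. That is 17.6% of the 34 on the lower side, where 4.19% of all tested genes stood on that side and 3.52% on the higher one. Because the 34 were chosen with earlier results of these data known, such shares are a description and not a test. On 3 lists of further synaptic genes, 2 of 46 presynaptic, 1 of 44 postsynaptic and 0 of 25 inhibitory genes were lower by that measure. On each of those lists 0 were higher. Of the 34 log2 changes, 23 were negative and 11 positive, or 67.6% negative, where 49.4% of all tested genes were negative. No synaptic gene had its 2 groups apart without overlap, and 0.313% of all tested genes had every cKO library below every control. The estimates were small: the 95% interval of 27 of the 34 log2 changes lay within 0.25 of 0 on either side.

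**Figure D1:**
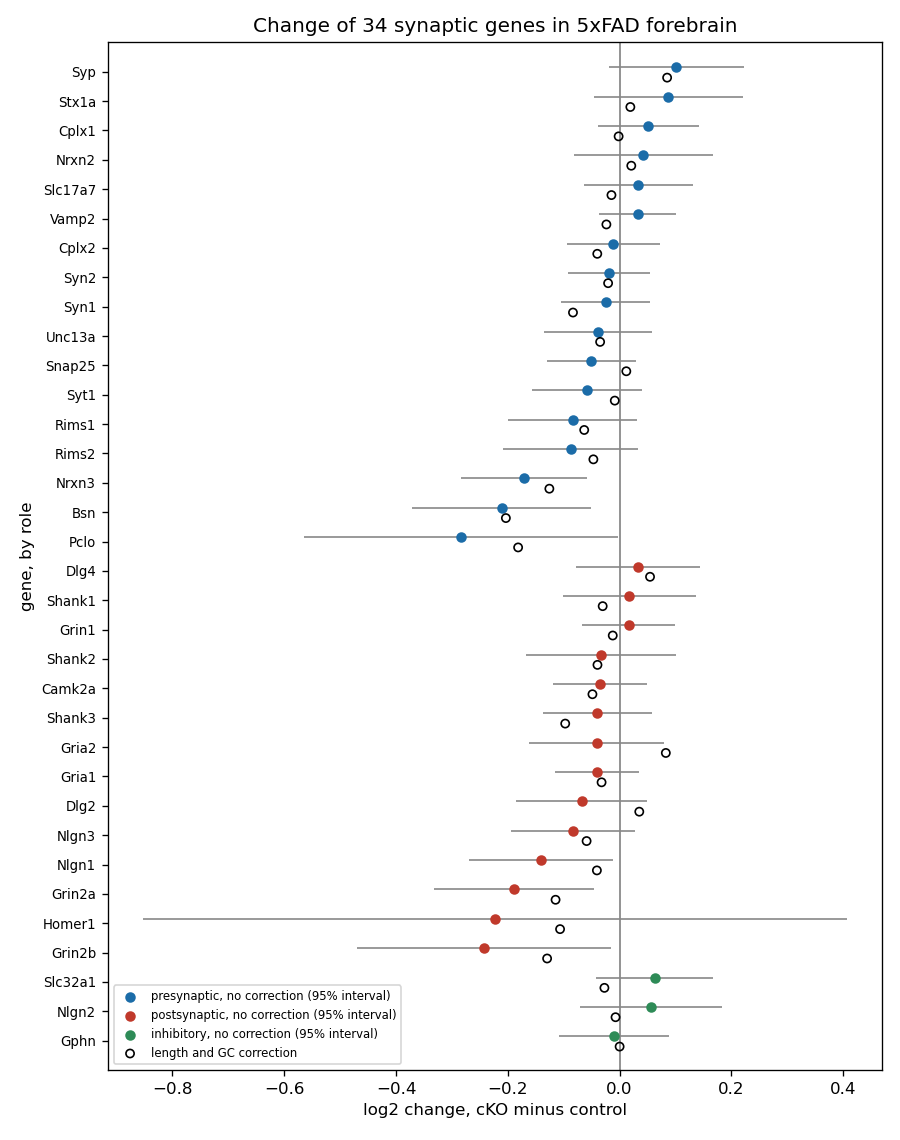
Log2 change, cKO minus control, of each synaptic gene (rows, grouped by role) with its 95% interval (lines); open circles are the estimates after correction for exonic length and GC content. The 17 presynaptic estimates ran between -0.28 and 0.10, and Homer1 had the widest interval, -0.85 to 0.41.

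By role, the median log2 change was -0.02 over the 17 presynaptic genes, of which 11 were negative, and -0.04 over the 14 postsynaptic genes, of which 11 were negative. The 3 inhibitory genes had a median of 0.06. Single libraries moved these medians: without cKO 5 the presynaptic median was -0.0088 and the postsynaptic -0.024, and without control 5 the inhibitory median was 0.014. With the libraries weighted by quality in limma-voom the median log2 change of inhibitory members was 0.0074. The median over all tested genes was 0.00. The spread between libraries in the median log2 CPM of a class, as the SD within groups, was 0.0400 for the presynaptic, 0.0584 for the postsynaptic and 0.0628 for the inhibitory genes. Each class median was smaller than that SD, which is the spread of single libraries and not the error of a difference between groups. The class medians were not tested. Summed over the 34 genes, the level was 18242 to 19526 CPM in cKO forebrains (median 19084) and 18915 to 19756 CPM in controls (median 19558). The ranges overlapped, and the library named cKO 5 gave the lowest sum.

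The windows around the annotated transcription start of Pclo and Bsn are printed because these genes, which encode the giant active-zone scaffolds Piccolo and Bassoon, had the most negative presynaptic estimates. Both are RefSeq windows on GRCm38.p6, 250 bases before to 50 after the start: Pclo at chr5:14514668-14514967 on the plus strand and Bsn at chr9:108190334-108190633 on the minus strand. Capitals mark matches to the GC box, GGGCGG, read on both strands.
Pclo: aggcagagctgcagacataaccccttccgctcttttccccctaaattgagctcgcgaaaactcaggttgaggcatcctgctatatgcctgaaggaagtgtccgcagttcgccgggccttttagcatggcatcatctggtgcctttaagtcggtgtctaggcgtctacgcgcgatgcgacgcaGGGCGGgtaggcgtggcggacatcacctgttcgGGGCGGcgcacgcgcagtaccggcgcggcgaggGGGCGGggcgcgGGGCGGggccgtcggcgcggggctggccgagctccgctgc
Bsn: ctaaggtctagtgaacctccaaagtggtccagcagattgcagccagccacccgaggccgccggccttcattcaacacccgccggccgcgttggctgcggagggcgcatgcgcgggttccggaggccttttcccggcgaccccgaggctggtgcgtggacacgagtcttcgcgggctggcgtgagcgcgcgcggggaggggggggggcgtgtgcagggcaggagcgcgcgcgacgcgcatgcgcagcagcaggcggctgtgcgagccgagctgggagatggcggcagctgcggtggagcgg
The Pclo window held 4 GC boxes, 35 CpG dinucleotides and 66.0% GC. The Bsn window held 0 GC boxes, 38 CpG dinucleotides and 72.3% GC. The median GC over 32851 RefSeq windows was 52.7%. Entries existed for 23 of the 34 genes, in 33 windows with a median GC of 60.7%. The GC box occurred in 15 of those 33 windows, against 35.7% of all windows. A TATA box, TATAAA, occurred in 1 of the 33, against 13.6% of all. The cAMP response element, TGACGTCA, occurred in 1 of the 33 (Syn1), against 1.79% of all, and the E-box, CACGTG, in 1 (Grin1), against 7.15%. All 4 motifs were searched on both strands, and none contains another; a match is a description of the letters alone.

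Among presynaptic genes, levels were compared as TPM, computed from counts per union exonic length. Snap25, a SNARE of the plasma membrane, was the highest of all 34 at 1305 ± 78.6 TPM in cKO forebrains and 1354 ± 59.8 TPM in controls (SD, n = 7 and 6). Its libraries ran from 2191 to 2486 CPM (median 2383) in cKO forebrains and from 2298 to 2589 CPM (median 2443) in controls. The groups overlapped, with a log2 change of -0.05 (SE 0.039, adjusted p = 0.781, edgeR). Complexin 1 (Cplx1), which clamps and promotes SNARE fusion, followed at 1168 ± 54.1 TPM in cKO forebrains and 1130 ± 62.0 TPM in controls, and the vesicle SNARE Vamp2 at 1028 ± 25.6 TPM in cKO forebrains and 1008 ± 28.8 TPM in controls. These differences lay within the spread of the libraries. The order of Cplx1 and Vamp2 depends on the length used. Their union exons had 2189 and 3809 bases, and their longest annotated transcripts 2189 and 2205 bases. Vamp2, singled out after its values were seen, varied least of the 34: only 0.355% of the 4793 genes at a mean of 50 CPM or more had a smaller SD within groups. Its cKO libraries ran from 1027 to 1071 CPM and its controls from 1001 to 1064 CPM.

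The rest of the fusion and vesicle machinery showed changes of both signs and none past the test. The calcium sensor Syt1 had a log2 change of -0.06 (-0.02 without cKO 5), the syntaxin Stx1a 0.09 (0.04 without cKO 5), the second complexin gene Cplx2 -0.01, and the vesicle-tethering synapsins Syn1 and Syn2 both -0.02. The vesicular glutamate transporter Slc17a7, which marks cortical and hippocampal excitatory terminals, had 0.03, and 0.00083 without cKO 5. Synaptophysin (Syp), an abundant vesicle membrane protein, had the largest positive estimate of the 34. It ran from 734 to 945 CPM (median 774) in cKO forebrains and from 652 to 789 CPM (median 748) in controls. Only cKO 5 stood far above the controls, and the log2 change of 0.10 (SE 0.058) had an adjusted p of 0.689 and was 0.06 without cKO 5.

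Of the active-zone genes, the giant scaffolds had the most negative values and the release-site proteins smaller ones. Piccolo (Pclo; chr5:14514918-14863459, plus strand, GENCODE M21 on GRCm38) ran from 104 to 222 CPM (median 177) in cKO forebrains and from 197 to 231 CPM (median 214) in controls. Of the 7 cKO libraries, 5 lay below the lowest control, and cKO 5 lay far below the rest. The log2 change was -0.28 (SE 0.130, 95% interval -0.56 to -0.002, adjusted p = 0.645), and without cKO 5 it was -0.19. Bassoon (Bsn; chr9:108096022-108190384, minus strand) ran from 308 to 432 CPM (median 417) in cKO forebrains and from 393 to 510 CPM (median 451) in controls. All 7 cKO libraries lay below the control median, but only 2 below the lowest control. Its log2 change was -0.21 (SE 0.076, 95% interval -0.37 to -0.05, adjusted p = 0.517). Bsn and Cx3cr1 are both on chromosome 9, and only the cKO mice carried the recombinase allele. For Bsn, an effect of DNA linked to that allele cannot be told apart from one of Atg7 deletion. The RIM scaffolds, which tether vesicles and calcium channels, had log2 changes of -0.08 (Rims1) and -0.09 (Rims2). Without control 5 that of Rims1 was -0.04, and without cKO 5 that of Rims2 was -0.04. The vesicle-priming protein Munc13-1 (Unc13a) had -0.04.

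The 2 listed neurexins, presynaptic adhesion proteins, had estimates of opposite sign. Nrxn3 (chr12:88722876-90334935, plus strand) ran from 179 to 244 CPM (median 213) in cKO forebrains and from 232 to 251 CPM (median 242) in controls. Of the 7 cKO libraries, 6 lay below the lowest control, the largest such count of the 34 genes; cKO 1, the exception, lay within the control range. The log2 change was -0.17 (SE 0.054, 95% interval -0.28 to -0.06, adjusted p = 0.386). Nrxn2 ran from 398 to 516 CPM (median 416) in cKO forebrains and from 355 to 446 CPM (median 428) in controls, with a log2 change of 0.04. Whether the neurexins differed from each other in their change was not tested.

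**Figure D2:**
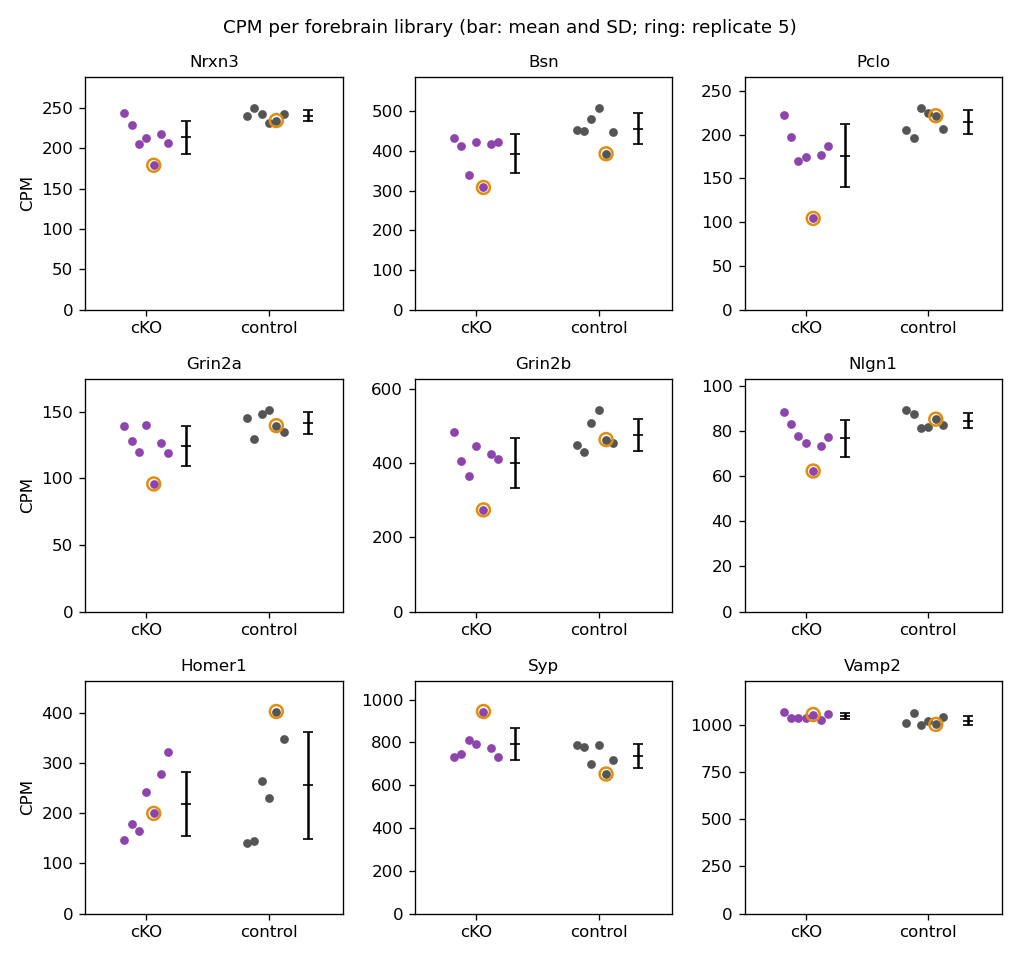
Level in CPM of 9 synaptic genes in each library, cKO left and control right; each point is 1 library, rings mark cKO 5 and control 5, and bars are group means with SD. For Nrxn3, 6 of 7 cKO points lie below the lowest control; for Vamp2 the points lie between 1001 and 1071 CPM; for Homer1 both groups are widely spread.

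On the postsynaptic side, the kinase Camk2a, the most abundant by length, was at 1139 ± 86.9 TPM in cKO forebrains and 1169 ± 37.9 TPM in controls (SD, n = 7 and 6). Its libraries ran from 2039 to 2401 CPM (median 2250) in cKO forebrains and from 2209 to 2396 CPM (median 2338) in controls. The groups overlapped (log2 change -0.03, SE 0.041, adjusted p = 0.853, edgeR). At the other end, Nlgn3 had the lowest level per length, 20.9 ± 1.69 TPM in cKO forebrains and 22.1 ± 0.814 TPM in controls. Nlgn1 was next at 21.4 ± 2.65 TPM in cKO forebrains and 23.6 ± 1.04 TPM in controls, so these neighbours did not differ beyond their spread.

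NMDA receptor subunits of the GluN2 type set the kinetics of the channel. Both that are among the 34, Grin2a and Grin2b, were lower at an unadjusted p under 0.05, and the obligatory GluN1 subunit was not. The other GluN2 genes, Grin2c and Grin2d, stood on the list of further postsynaptic genes and had positive estimates. Their log2 changes were 0.12 for Grin2c (unadjusted p = 0.0505, edgeR) and 0.17 for Grin2d (unadjusted p = 0.0502, edgeR). Grin2a (chr16:9567898-9995560, minus strand) ran from 95.8 to 140 CPM (median 127) in cKO forebrains and from 130 to 152 CPM (median 142) in controls. All 7 cKO libraries lay below the control median and 5 below the lowest control. The log2 change was -0.19 (SE 0.068, 95% interval -0.33 to -0.05, adjusted p = 0.503). Grin2b (chr6:135713233-136173511, minus strand) ran from 274 to 485 CPM (median 412) in cKO forebrains and from 430 to 545 CPM (median 459) in controls. Again 5 cKO libraries lay below the lowest control, and cKO 5 was lowest by a wide margin. Its log2 change was -0.24 (SE 0.106, 95% interval -0.47 to -0.02, adjusted p = 0.637). Grin1 ran from 343 to 368 CPM in cKO forebrains and from 324 to 372 CPM in controls, with a log2 change of 0.02. Whether the subunits differed from each other in their change was not tested. The AMPA receptor subunits Gria1 and Gria2 both had log2 changes of -0.04.

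The postsynaptic adhesion gene Nlgn1, whose protein binds neurexins at excitatory synapses (chr3:25426215-26332460, minus strand), ran from 62.2 to 88.5 CPM (median 77.2) in cKO forebrains and from 81.1 to 89.4 CPM (median 83.9) in controls. Of the 7 cKO libraries, 5 lay below the lowest control. The log2 change was -0.14 (SE 0.062, 95% interval -0.27 to -0.01, adjusted p = 0.626). Nlgn3 had -0.08. PSD-95 (Dlg4), the main scaffold of the excitatory density, had the largest positive postsynaptic estimate, with 622 to 744 CPM (median 684) in cKO forebrains and 560 to 733 CPM (median 673) in controls. The 2 groups covered nearly the same range (log2 change 0.03, SE 0.054, adjusted p = 0.896). The related scaffold Dlg2 had -0.07 (-0.02 without cKO 5), and the deeper Shank scaffolds had 0.02 (Shank1), -0.03 (Shank2) and -0.04 (Shank3).

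Homer1, which links Shank to metabotropic glutamate receptors, was singled out after its values were seen, because it varied most. It ran from 146 to 322 CPM (median 200) in cKO forebrains and from 142 to 403 CPM (median 248) in controls. The low libraries were cKO 1, 2 and 3 and control 1 and 2, all between 142 and 179 CPM, and the next lowest library, cKO 5, was at 199.9 CPM. The gene has long forms and a short form induced by neuronal activity, which gene-level counts add together. Its SD within groups was 0.525 on the log2 scale, larger than for 99.7% of genes at a mean of 50 CPM or more, whose median SD was 0.0964. The log2 change was -0.22 (SE 0.287, 95% interval -0.85 to 0.41, adjusted p = 0.868), an interval that holds changes of either sign, and it was -0.04 without control 5.

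None of the 3 inhibitory genes passed the test. The vesicular inhibitory transmitter transporter Slc32a1 was the most abundant by length, at 205 ± 12.7 TPM in cKO forebrains and 197 ± 9.001 TPM in controls (SD, n = 7 and 6). Its libraries ran from 136 to 169 CPM (median 157) in cKO forebrains and from 135 to 154 CPM (median 148) in controls. The log2 change was 0.06 (SE 0.051, adjusted p = 0.793, edgeR). Neuroligin 2 (Nlgn2), the neuroligin of inhibitory synapses, also had 0.06, and 0.0026 without control 5. Gephyrin (Gphn), the scaffold of glycine and GABA-A receptors, ran from 75.0 to 85.8 CPM (median 80.0) in cKO forebrains and from 77.4 to 86.8 CPM (median 79.0) in controls, with a log2 change of -0.01 (SE 0.048, adjusted p = 0.967). All 3 had overlapping groups.

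**Figure D3:**
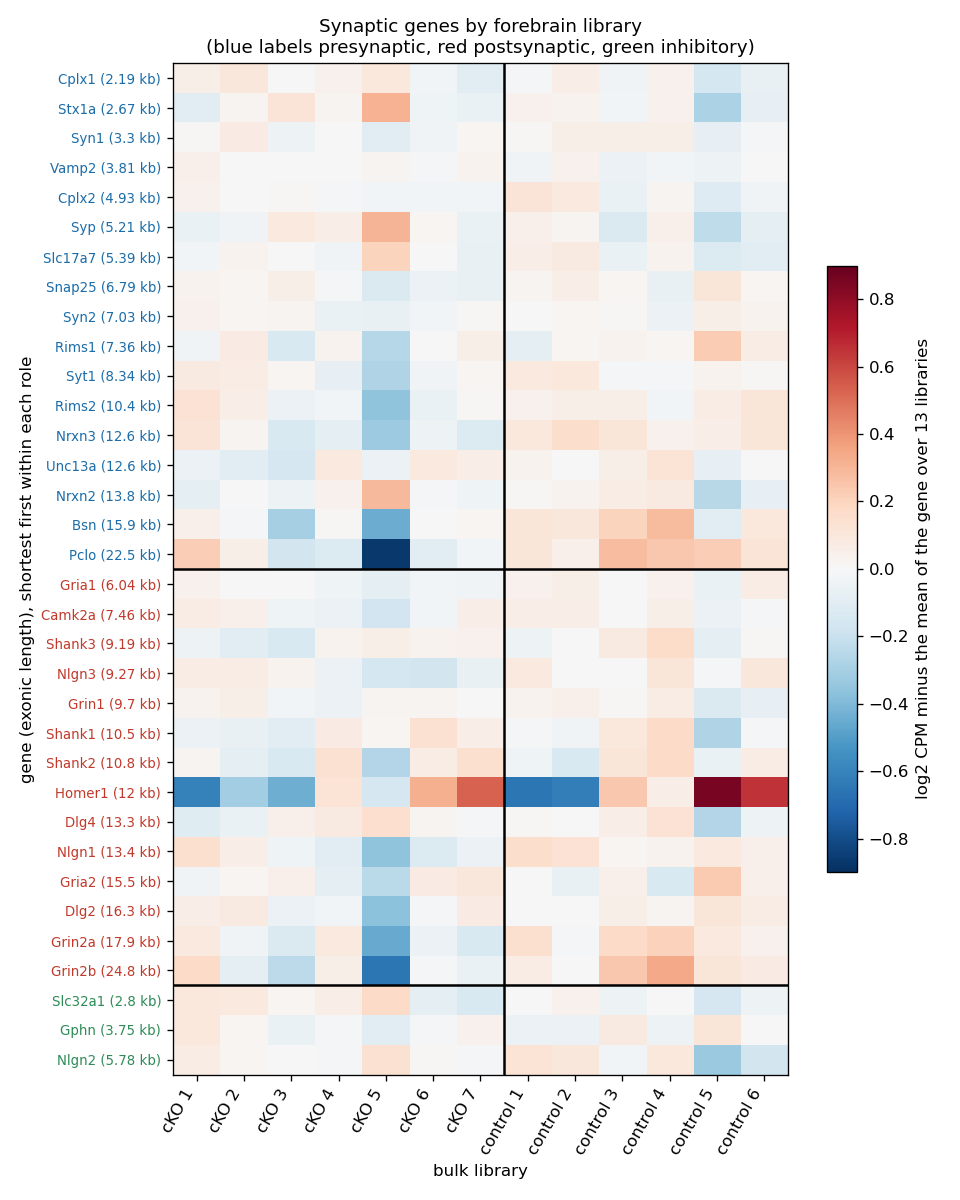
Log2 CPM of the 34 synaptic genes (rows, by role) in each library (columns, cKO left and control right) minus the gene's mean over the 13 libraries. Library cKO 5 was the lowest of 13 for 18 genes and the highest for 7, and the Homer1 row varies most.

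The log2 changes were more negative in longer genes. The 6 genes with an unadjusted p under 0.05 were all 12 kb or longer in summed exons: Grin2b at 24.8 kb, Pclo 22.5 kb, Grin2a 17.9 kb, Bsn 15.9 kb, Nlgn1 13.4 kb and Nrxn3 12.6 kb. Homer1, at 11976 bases, lay just under that bound. Summed exons pool all annotated transcripts of a gene. The longest single transcript had 7922 bases for Nrxn3 and 5713 for Homer1, but 24060 for Grin2b. Of the 11 synaptic genes of 12 kb and over, 9 were negative, with a median log2 change of -0.14. The others of that length were Gria2, Dlg2, Unc13a, Nrxn2 and Dlg4. Genes of that length were lower across the whole transcriptome too: the median over 875 tested genes was -0.08 and 85.7% were negative. Of the 875, 16.8% had an unadjusted p under 0.05 on the lower side, against 6 of 11 (54.5%) of the synaptic genes. These shares were matched on length only, not on level or GC content, and their difference was not tested. The 3 synaptic genes under 3 kb, Cplx1, Stx1a and Slc32a1, were all positive with a median of 0.06, where 5684 tested genes of that length had a median of 0.03. As a description across genes, which are not independent and share the same libraries, Spearman's rho between log2 change and exonic length was -0.674 over the 34 genes and -0.211 over 16939 tested genes. With the length of the longest annotated transcript rho was -0.693 over the 34 and -0.241 over all tested genes. With GC content rho was 0.630 over the 34 and 0.367 over the 16939.

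**Figure D4:**
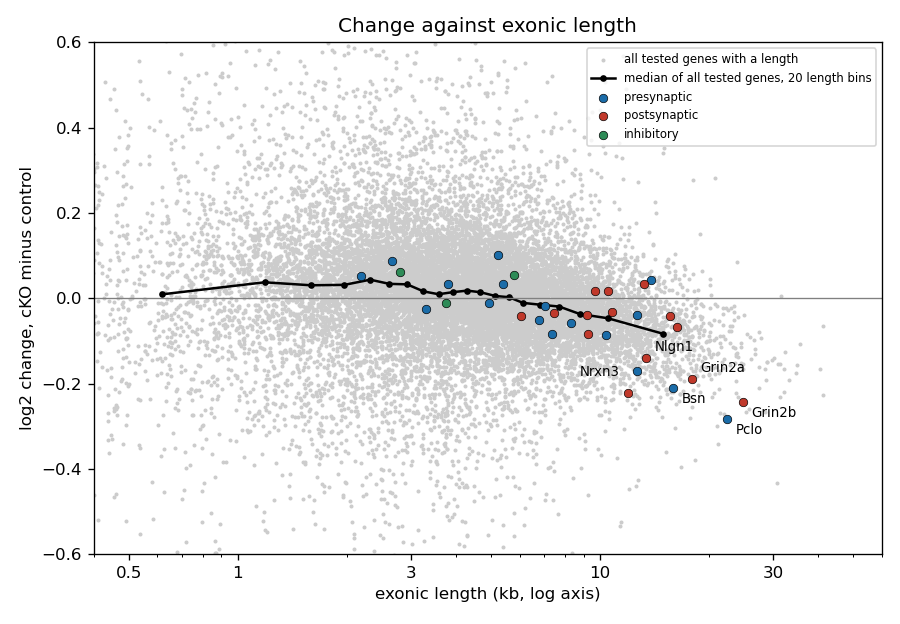
Log2 change, cKO minus control, against exonic length in kb (log axis) for all tested genes (grey) and the synaptic genes by role (colour); the black line joins medians in length bins, and genes beyond the axis limits are not drawn. The 6 labelled synaptic genes, all with an unadjusted p under 0.05, lie at 12.6 to 24.8 kb.

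Removing, within each library, the smooth trend of log counts on exonic length and GC content brought rho with length to -0.330 over the 34 genes and -0.02 over all. No synaptic gene was called after that correction either, and the smallest adjusted p was 0.282 (Nrxn3, edgeR). Lower at an unadjusted p under 0.05 were Bsn (log2 change -0.20), Pclo (-0.18), Nrxn3 (-0.13), Grin2a (-0.11) and Shank3 (-0.10), and Gria2 was higher (0.08). The estimate of Bsn hardly moved, while that of Nlgn1 came to -0.04 and that of Grin2b to -0.13. Of the 11 longest synaptic genes, 4 had an unadjusted p under 0.05 on the lower side after correction, where 7.54% of all tested genes of that length had one. Here too the genes were not matched on level, and the difference was not tested. The class medians after correction were -0.02 for presynaptic, -0.04 for postsynaptic and -0.01 for inhibitory genes, so the inhibitory median changed sign.

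Libraries cKO 5 and control 5 stood farthest from the others. The long synaptic genes (12 kb and over) in cKO 5 had a median deviation of -0.36 log2 units from the gene means, while the 10 genes under 6 kb stood at 0.12 in the same library. In control 5 the long genes stood at 0.09 and the short ones at -0.14. Library cKO 5 was the lowest of 13 for 18 of the 34 genes and the highest for 7, and control 5 the lowest for 11 and the highest for 7. Over all genes, the rho between deviation and length was -0.380 in cKO 5 and 0.211 in control 5, and with GC content it was 0.520 in cKO 5 and -0.477 in control 5. The quality weight in limma-voom was 0.286 for cKO 5 and 0.478 for control 5, against 0.749 to 1.61 for the other 11 libraries. RNA integrity was not given in the labels, and its part in these deviations was not tested. Without cKO 5 and control 5 together, the log2 changes were -0.19 for Bsn, -0.17 for Pclo, -0.13 for Nrxn3, -0.13 for Grin2a, -0.17 for Grin2b and -0.09 for Nlgn1. Of these, Bsn, Grin2a, Nrxn3 and Pclo kept an unadjusted p under 0.05, with no adjusted p of a synaptic gene below 0.335. Bsn, Grin2a and Nrxn3 had an unadjusted p under 0.05 in each of the 13 fits that left out 1 library, Grin2b in 7, Nlgn1 in 6 and Pclo in 4. Each of those fits reused all but 1 of the libraries that picked these genes, so they are no independent check. With correction for exonic length alone, Bsn, Nrxn3 and Pclo were lower at an unadjusted p under 0.05 (edgeR), and Grin2a was not.

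**Figure D5:**
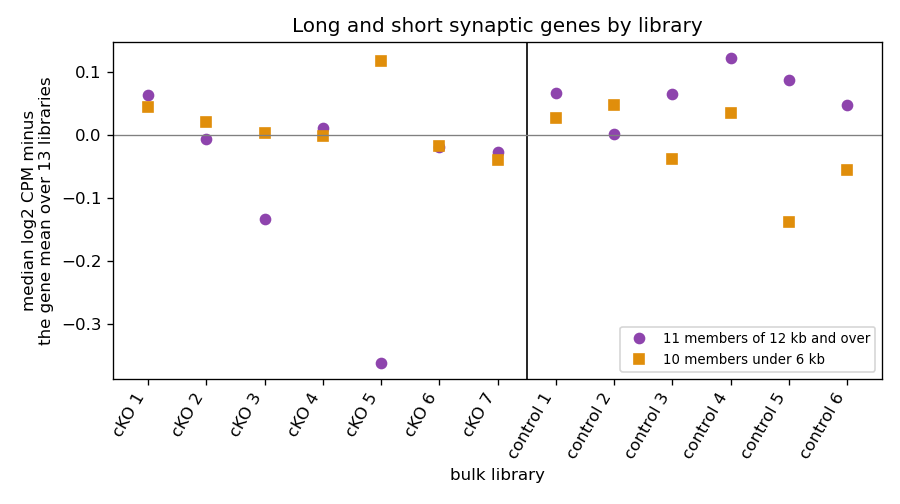
Median deviation in log2 CPM from the gene mean over 13 libraries (vertical axis) of the 11 synaptic genes of 12 kb and over (circles) and the 10 under 6 kb (squares) in each library. The sets lie far apart in cKO 5, at -0.36 and 0.12, and in control 5, at 0.09 and -0.14.

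No gene on the 3 lists of further synaptic genes passed the test. Of 46 further presynaptic genes none was called by edgeR, 0 were higher and 2 lower at an unadjusted p under 0.05, and their median log2 change was 0.00 with 23 positive and 23 negative. The lowest unadjusted p, under 0.05 for both, belonged to Rab3c, a vesicle GTPase, with a log2 change of -0.13 (adjusted p = 0.559), and Unc13c, a relative of Munc13-1, with -0.18 (adjusted p = 0.598). Of 44 further postsynaptic genes none was called, 1 was lower at an unadjusted p under 0.05, and the median was -0.01. Ephb2, a receptor of ephrins, ran from 19.2 to 21.4 CPM in cKO forebrains and from 20.8 to 25.5 CPM in controls, with a log2 change of -0.18 (adjusted p = 0.472). Grin2d, another GluN2 subunit, was on the other side with 0.17 (adjusted p = 0.645). Of 25 further inhibitory genes none was called, none had an unadjusted p under 0.05, and the median was -0.04 with 19 negative and 6 positive. Gabrg3, a GABA-A receptor subunit with one of the lowest unadjusted p there, had a log2 change of -0.15 (adjusted p = 0.685).

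The series also holds 1 single-cell library per genotype of sorted microglia, from mice without the 5xFAD transgenes, pooled from 4 cKO or 3 control forebrains. These say which synaptic genes microglial preparations carry, with no replicate and no test, and intervals cover counting error only. After keeping cells with at least 500 genes and at most 10% mitochondrial UMIs, 8874 of 9840 cKO barcodes and 6243 of 6633 control barcodes remained, 22 barcode sequences were found in both libraries, and doublets were not removed. The 34 genes summed to 115.9 CPM (95% Poisson interval 112.5 to 119.2) in cKO microglia and 114.9 CPM (108.0 to 122.1) in control microglia. Forebrain libraries had 18242 CPM or more, but the 2 measures are unlike: these are UMIs, and bulk read counts grow with transcript length. The median exonic length was 9230 bases over the 34 genes and 4121 over all tested genes. The largest were Vamp2, at 40.2 CPM in cKO and 43.5 CPM in control microglia, Gphn, at 18.6 CPM in cKO and 17.98 CPM in control microglia, and Dlg4, at 16.7 CPM in cKO and 17.2 CPM in control microglia. Camk2a, singled out after its values were seen, had 7.89 CPM (7.05 to 8.81) in cKO and 2.85 CPM (1.86 to 4.18) in control microglia. Of the 6 genes with low p in the forebrain, Bsn was at 6.84 CPM in cKO and 8.00 CPM in control microglia. Pclo had 9 UMIs in cKO and 3 in control microglia, and Nrxn3 had 9 in cKO and 4 in control microglia. Grin2b had 3 UMIs in cKO and 0 in control microglia, and Nlgn1 had 2 in cKO and 0 in control microglia. Grin2a had 0 in both, with an upper bound of the same 95% Poisson interval of 0.0921 CPM in cKO and 0.404 CPM in control microglia. In all, 2 of the 34 genes had 0 UMIs in cKO microglia and 13 in control microglia, whose library held 9122532 UMIs where the cKO library held 40031404.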

How the data were processed

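Bulk libraries were poly-A selected and made with the NEBNext Ultra II kit, per the labels' protocols. The authors deposited whole-number read counts per gene, and the submitters' processing notes name HISAT2 2.0.5, featureCounts 1.5.0-p3 and the mm10 build. No source used here gives the annotation release or the strand setting, so a gene's reads and those of an overlapping or antisense partner cannot be separated. The single-cell files hold UMI counts, deposited by the authors, from Cell Ranger 6.1.0 per the file headers.

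Counts were tested with edgeR 4.0.16 in R 4.3.3 (filterByExpr, TMM, robust quasi-likelihood F-test, two-sided, genotype as the term), with p-values adjusted by Benjamini-Hochberg over 16956 genes and a threshold of 0.05. Standard errors were taken from the F statistic. TPM and lengths used union exons of GENCODE M21 on GRCm38. GC content was pooled over all annotated transcripts of a gene in that release. The correction fitted natural splines of 4 degrees of freedom per library. The pipeline was checked on simulated counts with no trend or with a trend on exonic length. No trend on GC content was simulated, so the GC part of the correction was not checked. Alternatives used RLE scaling, DESeq2 1.42.0, limma 3.58.1 voom with quality weights, no filter, a replicate block, corrections for length and for GC, and libraries left out; leaving out cKO 5 and control 5 together was chosen after seeing the data. The 34 genes and the lists were chosen with earlier results of these data known. Genes were given in full if they had p under 0.05, the highest TPM of their class, or its largest positive or negative change, and of each further list the 2 with the lowest p. Some genes that this rule names are not reported here. Library totals, 16658707 to 22355512 counts, set the counting precision.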

Additional observations from a re-analysis of the deposited data

Results flagged for a closer look

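Over 34 genes and 2 groups, 68 checks for a library far from the rest of its group found 5, and chance alone gives about 1 in 20 groups. All 5 lay in library cKO 5. On the high side, Syp was at 945 CPM in cKO 5, where the next cKO library had 811 CPM. Nrxn2 was at 516 CPM, where the next had 433 CPM, and Slc17a7 was at 1190 CPM, where the next had 1060 CPM. On the low side, Rims2 was at 99.3 CPM, where the next cKO library had 122 CPM, and Dlg2 was at 328 CPM, where the next had 408 CPM. In the same library the deviation of all genes from their means had a rho of -0.380 with exonic length and 0.520 with GC content; the part of either in these values was not tested.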

How the results depend on the processing

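No synaptic gene was called under any of the alternatives run, and their smallest adjusted p lay between 0.0675 (Bsn, replicate block with length and GC correction) and 0.651 (without control 6). With all 13 libraries and no correction, 9 genes were called higher and 47 lower. Genes called higher were 19 by DESeq2, 23 without the count filter and 1 with the replicate block, which called 21 lower; leaving out 1 library gave 3 (without cKO 7) to 23 (without cKO 1) higher and 30 (without control 5) to 50 lower. The counts higher were 3 without control 3 or 4, 4 without cKO 2 or control 2, and 5 without cKO 6, control 5 or control 6; 31 were lower without cKO 3 or cKO 6. Same-numbered libraries had correlations of 0.158, 0.00699, -0.0648, 0.115, -0.257 and 0.0971 in their deviations from group means, for numbers 1 to 6. These were taken over all genes and cannot tell whether single genes followed the number. The SE of Homer1 was 0.287 in the main fit and 0.165 with the replicate block. A batch or order shared by same-numbered libraries was not tested.

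The inhibitory median moved to -0.0073 with length and GC correction. Signs changed for some uncalled estimates, most of them near 0 but also Homer1 (-0.22 with all libraries and no weights) and Stx1a (0.09), and the cause was not tested. With voom weights these were Nrxn2 -0.017, Slc17a7 -0.0066, Dlg4 -0.00028, Homer1 0.040, Grin1 -0.0038, Gria2 0.018 and Gphn 0.0074. With length and GC correction they were Snap25 0.012, Vamp2 -0.024, Cplx1 -0.0018, Slc17a7 -0.015, Dlg2 0.035, Shank1 -0.030, Grin1 -0.012, Gria2 0.083, Nlgn2 -0.0073, Gphn 0.000030 and Slc32a1 -0.027. With length correction alone they were Unc13a 0.025, Dlg2 0.016, Shank2 0.012 and Gria2 0.044. With the replicate block and both corrections they were Snap25 0.032, Vamp2 -0.033, Slc17a7 -0.0017, Dlg2 0.035, Shank1 -0.035, Grin1 -0.0073, Gria2 0.081 and Slc32a1 -0.013. Without cKO 5 and control 5 together they were Stx1a -0.0033, Syn2 0.0049, Nrxn2 -0.044, Slc17a7 -0.016, Dlg4 -0.030, Dlg2 0.00065, Shank1 -0.026, Grin1 -0.0058, Gria2 0.045, Nlgn2 -0.013 and Gphn 0.032. Leaving out 1 library at a time, the ranges that crossed 0 were -0.033 to 0.013 for Cplx2, -0.0061 to 0.063 for Nrxn2, -0.010 to 0.063 for Dlg4, -0.029 to 0.056 for Shank1, -0.059 to 0.0057 for Shank2, -0.0055 to 0.031 for Grin1, -0.072 to 0.0078 for Gria2 and -0.027 to 0.014 for Gphn. The sorted-cell sums stayed within counting error with all barcodes or at least 1000 genes. These sets contain the main set of cells or are part of it, so they are no independent check.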
